A study of Mus musculus with 6 samples.

Results

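The genes of intrinsic apoptosis and of the death receptors were examined in mouse epiblast-like cells (EpiLCs) that lacked Cables2. The set comprised 36 genes, listed by name, out of 49585 gene rows in the table, and all 36 were found by symbol. They were divided into pro-survival BCL2 family genes (4), pore-forming BAX/BAK effectors (3), BH3-only genes (8), the apoptosome and proteins released from mitochondria (4), inhibitor of apoptosis (IAP) genes (4), caspases (4), death receptors with their adaptor (4) and p53-linked effectors (5). The set was compiled by function, with the p53-linked effectors grouped by their link to the transcription factor p53. It was chosen with earlier results of these data known. Of its genes 13, among them all 5 p53-linked effectors, are listed as known targets of p53. That listing was drawn up for these results and names no source.

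Cables2 encodes a protein of the Cables family, which binds cyclin-dependent kinases. EpiLCs are made in culture from embryonic stem cells (ESCs) and resemble the epiblast soon after implantation. The 3 Cables2 deficient libraries (KO, numbered 04, 05 and 06) and the 3 wild-type libraries (WT, numbered 01, 02 and 03) all came from C57BL/6 ESCs that had been kept with LIF, CHIR99021 (3 µM) and PD0325901 (1 µM). In both groups the ESCs were plated on fibronectin with activin A (20 ng/mL), bFGF (12 ng/mL) and KSR (1%), and RNA was taken on day 2. Nothing in the labels tells if replicate libraries derive from different cultures or from more than 1 ESC clone. The p-values therefore measure library-to-library spread, part or all of which may be technical. A difference between cultures or clones cannot be told apart from one of genotype. The fit put the spread between libraries beyond counting noise at 5.03% (common coefficient of variation).

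Library totals ran from 4442618 to 5206717 counts in KO and from 4234788 to 4848967 counts in WT. Cables2 had 6, 11 and 4 counts in the KO libraries, against 114, 111 and 121 counts in the WT libraries. All 9 EpiLC and epiblast markers passed the count filter, with a summed level of 5937 to 6075 CPM (counts scaled to library size) in KO and 5529 to 5757 CPM in WT, and 3 of them rose and 1 fell. The 7 naive ESC markers summed to 140 to 152 CPM in KO and 225 to 288 CPM in WT, and 5 of them fell. Over all 11594 tested genes, 8.13% were called higher in KO and 9.13% lower by the test given below. The fibroblast markers summed to 18.1 to 23.5 CPM in KO and 16.7 to 17.9 CPM in WT, with Postn, Lum and Prrx1 at 0 in every library. Extraembryonic endoderm markers summed to 12.5 to 20.3 CPM in KO and 19.9 to 25.5 CPM in WT, with Afp at 0, and 1 of them fell. Trophoblast markers summed to 42.5 to 59.7 CPM in KO and 39.3 to 54.9 CPM in WT, with Elf5 at 0. Mitochondrially encoded transcripts took 0.204% to 0.243% of the counts in KO and 0.141% to 0.152% in WT. The epiblast and naive marker sums and the mitochondrial share thus moved with genotype without overlap between the groups. The fibroblast marker sum did not overlap either, but only narrowly (lowest KO 18.1 CPM, highest WT 17.9 CPM). Of the 10 fibroblast markers 2 were tested and none was called. The part of these differences in the results that follow was not tested.

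In intrinsic apoptosis, BH3-only proteins relay stress signals to the BCL2 family, and BAX and BAK then open pores in the outer mitochondrial membrane unless pro-survival members such as MCL1 and BCL-XL hold them in check. Cytochrome c released through the pores assembles with APAF1 into the apoptosome, which activates caspase-9. Death receptors act from the cell surface through FADD and caspase-8, and p53 is a transcriptional activator of genes at several of these steps. Mouse pluripotent cells and the early epiblast are known to be readily killed through the mitochondrial route.

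Perp, Phlda3, Apaf1, Trp53inp1, Bbc3, Aen, Tnfrsf10b and Mcl1 rose in KO EpiLCs, and none of the 36 genes fell. Of the 36 genes, 32 passed the count filter and were tested, and 8 of the 32 rose (quasi-likelihood test in edgeR, p adjusted by Benjamini-Hochberg over 11594 genes, threshold 0.05). In that comparison 8.13% of all tested genes were called higher in KO and 9.13% were called lower. At an unadjusted p under 0.05, 12 of the 32 were higher and 3 were lower, against 14.6% and 14.8% of all tested genes. DESeq2 called 6 higher and 0 lower, against 4.84% and 5.87% of all tested genes. limma-voom called 8 higher and 0 lower, against 7.62% and 8.77%. Scaling by library size alone called 11 of the 32 higher, against 9.48% higher and 8.27% lower over all tested genes. Scaling by upper quartile also called 11 higher, against 9.52% higher and 8.37% lower. The median log2 fold change, KO minus WT, was 0.09 over the 32 genes and 0.0087 over all tested genes.

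The rise was uneven within the set. Of the 12 tested genes listed as p53 targets 7 rose, with a median log2 fold change of 0.26. Of these 7 genes, 4 were p53-linked effectors. Of the 20 other tested genes 1 rose (Mcl1), with a median of -0.06. Because the p53 listing names no source and was made with earlier results known, this split is a description and not a test. All KO libraries lay above all WT libraries in CPM for 12 of the 32 genes, against 15.6% of all tested genes, and below them for 4 of the 32, against 16% of all tested genes. Together the 36 genes took 0.291% to 0.303% of the counts of a KO library and 0.246% to 0.258% of those of a WT library. Because these are bulk samples, a change in the number of cells expressing a gene and a change in RNA per cell cannot be told apart.

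**Figure D1:**
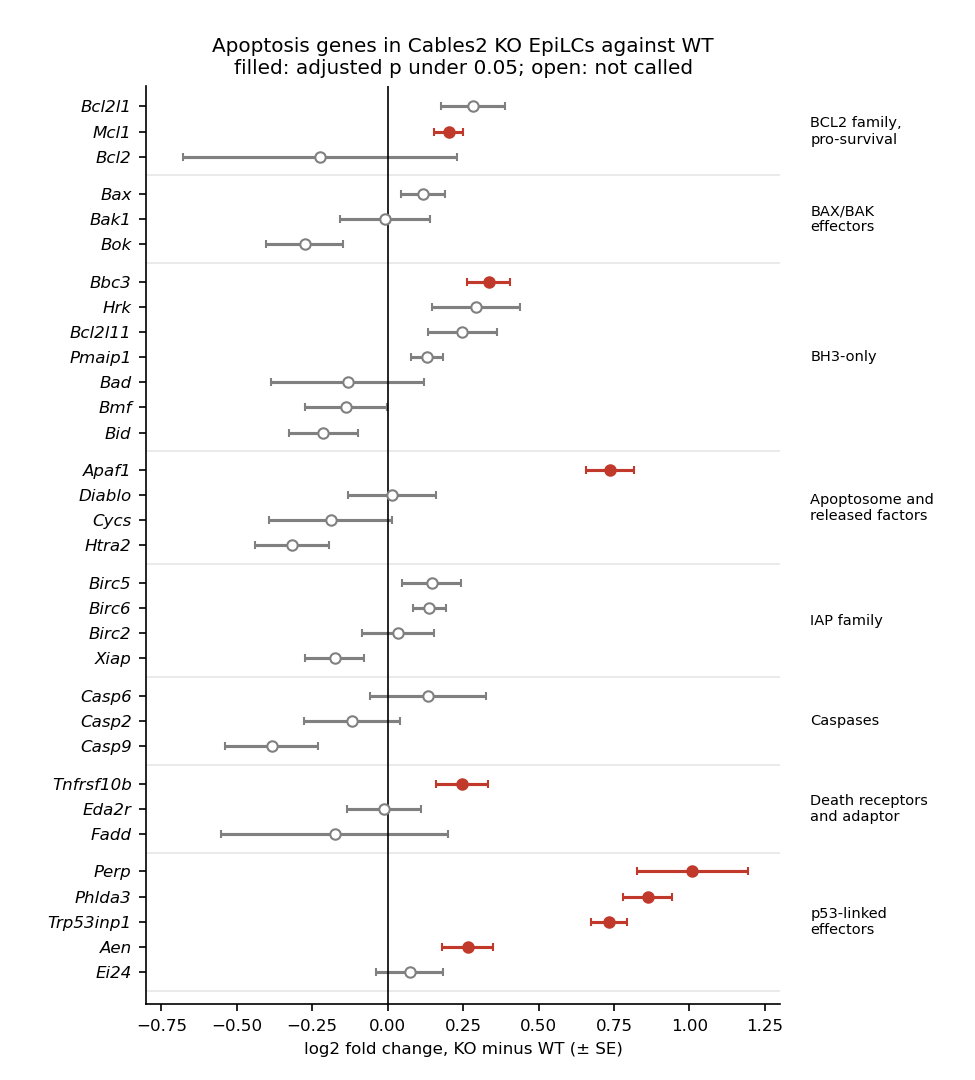
Log2 fold change (KO minus WT, ± SE) of the 32 tested genes, grouped by role, with called genes in colour and uncalled genes in grey. The called genes run from 0.20 for Mcl1 to 1.01 for Perp, and the lowest value, -0.38 for Casp9, was not called.

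Since 13 of the genes are listed as p53 targets, the RefSeq promoter windows (GRCm38.p6, 250 bases before to 50 bases after each annotated start) were searched on both strands for the consensus decamer of the p53 response element. Windows were found for 30 of the 36 genes. A perfect decamer lay in the windows of 6 of the 30 genes (20%), against 9.55% of all 27025 genes with a window. Of the 42 windows of the 30 genes 16.7% held one, against 8.36% of the 32851 windows of all genes. The same Aen decamer was counted in each of its overlapping windows. The stretches around the perfect decamers of all 6 genes are printed to show where the match fell in each, 5′ to 3′ on the strand of the gene, with the decamer in capitals.
Bax, chr7:45467065-45467124, minus strand: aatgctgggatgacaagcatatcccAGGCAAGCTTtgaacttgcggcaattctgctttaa
Bmf, chr2:118544766-118544825, minus strand: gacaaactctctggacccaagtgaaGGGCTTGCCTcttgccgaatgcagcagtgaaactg
Aen, chr7:78895927-78895956, plus strand: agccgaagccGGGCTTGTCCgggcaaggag
Ei24, chr9:36797335-36797369, minus strand: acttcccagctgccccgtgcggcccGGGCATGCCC
Birc5, chr11:117848987-117849043, plus strand: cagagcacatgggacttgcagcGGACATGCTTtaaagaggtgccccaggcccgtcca
Birc2, chr9:7836777-7836806, minus strand: cagtcaacccAGGCTAGTCTcgaatttgcg
The decamer began 201 bases before the annotated start in Bax, 213 in Bmf, 10 in Ei24 and 228 in Birc5. In Aen it began 10 bases after an annotated start and 121 bases before another, and in Birc2 it began 10 bases after the start.

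Of these 6 genes with a perfect decamer in the window, Aen was the one called in KO. Of the 9 listed p53 targets with a window, 3 held a perfect decamer (Bax, Aen and Ei24). Bmf, Birc2 and Birc5 are not listed as p53 targets. Windows were found for 5 of the 8 called genes (Mcl1, Bbc3, Apaf1, Aen and Phlda3). When 1 mismatch was allowed outside the C and G of the core, 19 of the 30 genes held a match (63.3%), against 54.2% of all 27025 genes with a window. Among these were the called genes Mcl1 and Bbc3, whose matches are shown with the near-decamer in capitals.
Mcl1, chr3:95658670-95658699, plus strand: cggagtggccGGGCCAGCCCtccggaaacg
Bbc3, chr7:16309486-16309515, plus strand: ctgcaagcccCGACTTGTCCccagccgcgg
The windows of Phlda3 and Apaf1, both called, held no match even with 1 mismatch. A full element, a pair of decamers with a spacer of 0 to 13 bases, was found in 0 of the 42 windows, against 0.0731% of all windows. A match describes the letters of a window and not a bound site, and elements outside the windows were not searched.

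The p53-linked effectors changed most, and 4 of the 5 rose. Perp encodes a tetraspan membrane protein of desmosomes that is also known as a p53 target in apoptosis. Perp (ENSMUSG00000019851.8, chromosome 10, 18845020 to 18857073, plus strand, mm10) had 103, 96 and 92 counts in the KO libraries, against 38, 56 and 37 counts in the WT libraries. It averaged 19.7 ± 1.327 CPM in KO and 9.77 ± 2.42 CPM in WT (SD, n = 3 each), with no overlap between the groups. The log2 fold change was 1.01 ± 0.18 (SE, adjusted p = 1.47e-05), the 118th highest of the 11594 tested genes.

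Phlda3 encodes a pleckstrin homology domain protein that restrains the survival kinase AKT at the membrane. Phlda3 (ENSMUSG00000041801.5, chromosome 1, 135766119 to 135769136, plus strand) had 563, 557 and 519 counts in KO, against 284, 260 and 274 counts in WT. Every KO library lay far above every WT library, at 111 ± 5.93 CPM in KO and 61.0 ± 3.86 CPM in WT (SD, n = 3 each). The log2 fold change was 0.86 ± 0.08 (SE, adjusted p = 2.37e-14).

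Trp53inp1 encodes a stress-induced nuclear protein that acts with p53. Trp53inp1 (ENSMUSG00000028211.11, chromosome 4, 11156431 to 11174379, plus strand) had 1140, 1176 and 994 counts in KO, against 660, 573 and 573 counts in WT. In CPM the 3 KO libraries were nearly equal, at 222, 223 and 225, while the WT libraries had 138, 128 and 137. With a log2 fold change of 0.73 ± 0.06 (SE, adjusted p = 8.58e-17) it had the 19th lowest p of all tested genes.

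Aen, an exonuclease gene named for its enhancement of apoptosis, differed less. Aen (ENSMUSG00000030609.18, chromosome 7, 78895854 to 78911209, plus strand) had 87.6, 88.3 and 96.8 CPM in KO, against 85.0, 64.8 and 76.3 CPM in WT. The groups did not overlap, but WT library 01 came close to the lowest KO library. The log2 fold change was 0.26 ± 0.08 (SE, adjusted p = 0.0177), and the call was lost without KO library 06 (adjusted p = 0.117), without WT library 02 (adjusted p = 0.247) and in DESeq2 (adjusted p = 0.093). Ei24, which encodes a membrane protein of the endoplasmic reticulum, averaged 43.8 ± 6.47 CPM in KO and 41.5 ± 2.05 CPM in WT (log2 fold change 0.07 ± 0.11).

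Summed per kilobase of exon, the 5 p53-linked effectors reached 140 ± 5.67 CPM per kb in KO and 86.4 ± 3.27 CPM per kb in WT (SD, n = 3 each), a ratio of 1.62. Phlda3 supplied 50.7% of this sum in KO and 45.3% in WT. It was the one class in which every tested gene had a positive log2 fold change.

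**Figure D2:**
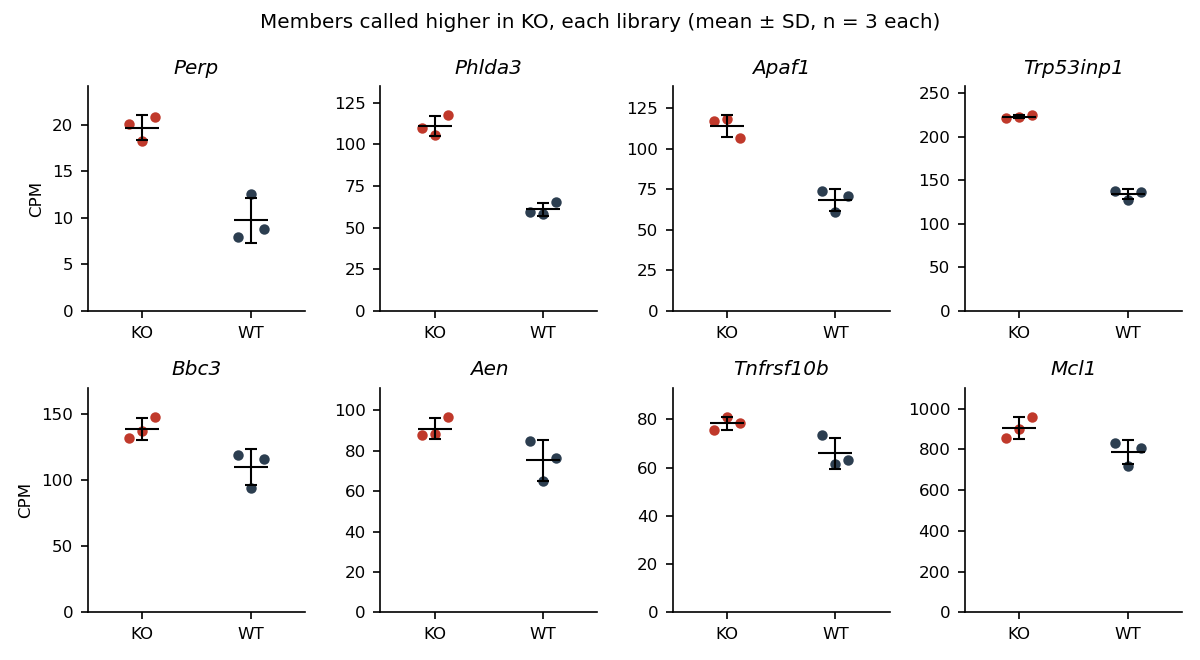
CPM of the 8 called genes in each library (points), with KO left of WT and the mean ± SD of 3 libraries as bars. Perp, Phlda3, Apaf1 and Trp53inp1 are widely separated between genotypes, whereas for Aen the highest WT library (85.0 CPM) is close to the lowest KO library (87.6 CPM).

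Among the BH3-only genes Bbc3 rose. Bbc3 encodes PUMA, which binds all major pro-survival BCL2 proteins and is a direct p53 target. Bbc3 (ENSMUSG00000002083.13, chromosome 7, 16308393 to 16318205, plus strand) had 131, 137 and 148 CPM in KO, against 119, 94.1 and 116 CPM in WT. All 3 KO libraries were higher than all 3 WT libraries, with means of 139 ± 8.30 CPM in KO and 110 ± 13.6 CPM in WT (SD, n = 3 each). The log2 fold change was 0.33 ± 0.07 (SE, adjusted p = 0.000261).

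Pmaip1 encodes NOXA, the BH3-only protein that chiefly targets MCL1, and is the other classical p53 target of this class. It was the more abundant of the pair per length, at 115 ± 1.16 CPM per kb of exon in KO and 105 ± 7.27 CPM per kb in WT, while Bbc3 had 65.2 ± 3.91 CPM per kb in KO and 51.6 ± 6.40 CPM per kb in WT (SD, n = 3 each). In CPM Pmaip1 ranged from 312 to 318 in KO and from 264 to 298.7 in WT. The groups did not overlap, yet the log2 fold change of 0.13 ± 0.05 was not called (adjusted p = 0.0815). The adjusted p was 0.048 when counts were scaled by library size alone and 0.0459 by upper quartile. It was 0.191 in DESeq2 and from 0.0517 to 0.478 in the edgeR fits without 1 library.

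The other BH3-only genes gave no call. Bcl2l11, which encodes BIM, had 43.2, 43.8 and 42.5 CPM in KO, against 33.3, 33.7 and 42.5 CPM in WT (log2 fold change 0.25 ± 0.11, adjusted p = 0.126). Its WT library 03 lay just under the lowest KO library, and the gene was called higher without that library (adjusted p = 0.0406). Bid, whose product is cleaved by caspase-8 and carries receptor signals to mitochondria, averaged 34.7 ± 2.51 CPM in KO and 40.0 ± 2.73 CPM in WT (-0.21 ± 0.12, adjusted p = 0.21). Its exons overlap those of Bcl2l13 on the opposite strand by 628 bases. Hrk had a log2 fold change of 0.29 ± 0.15, Bmf one of -0.14 ± 0.14 and Bad, whose product is controlled by survival kinases, one of -0.13 ± 0.25. Bik was not tested, with 4, 16 and 6 counts in KO and 4, 1 and 7 counts in WT.

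None of the pore-forming effectors was called, by edgeR, DESeq2 or limma-voom, and at an unadjusted p under 0.05 Bok was lower. Bax, the most abundant of them, had 123, 109 and 114 CPM in KO, against 103, 102 and 115 CPM in WT, so the groups overlapped. Its log2 fold change was 0.12 ± 0.07 (adjusted p = 0.285), with a 95% interval from -0.02 to 0.26. Bak1 averaged 22.3 ± 2.65 CPM in KO and 22.5 ± 3.55 CPM in WT. Bok, a related gene whose product can act without BAX and BAK, had 24.9, 26.4 and 30.7 CPM in KO, against 30.8, 35.3 and 32.9 CPM in WT. The groups touched but did not overlap (-0.28 ± 0.13, adjusted p = 0.133).

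The pro-survival side of the family was dominated by Mcl1, which rose. MCL1 is a short-lived protein that holds BAK and BH3-only proteins. Mcl1 (ENSMUSG00000038612.16, chromosome 3, 95658788 to 95663176, plus strand) had 855, 900 and 960 CPM in KO, against 832, 720 and 808 CPM in WT. The groups did not overlap, with means of 905 ± 52.5 CPM in KO and 787 ± 59.1 CPM in WT (SD, n = 3 each). The log2 fold change of 0.20 ± 0.05 (SE, adjusted p = 0.000808) was 0.14 without WT library 02, where the call was lost (adjusted p = 0.0565).

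Bcl2l1, which encodes BCL-XL, had 46.1, 47.4 and 49.97 CPM in KO, against 40.4, 39.5 and 37.7 CPM in WT. All KO libraries were higher, and the log2 fold change of 0.28 ± 0.11 stayed just short of the threshold (adjusted p = 0.0526). It passed when counts were scaled by library size alone (adjusted p = 0.0385) or by upper quartile (adjusted p = 0.0391). It did not pass in DESeq2 (adjusted p = 0.155) or in any fit without 1 library (adjusted p from 0.0749 to 0.159). Bcl2 itself was barely detected in these counts, with 17, 6 and 8 counts in KO and 18, 5 and 10 counts in WT.

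Bcl2l2, which encodes BCL-W, was not tested, with 15, 9 and 3 counts in KO and 12, 5 and 9 counts in WT. Its exons overlap those of Gm20521 on the same strand by 594 bases, so these counts are uncertain. Other deposited values, not used here, appeared to rest on more reads for this gene, so its level and its place in the order that follows may be too low. Per length, Mcl1 stood at 265 ± 15.4 CPM per kb in KO and 230 ± 17.3 CPM per kb in WT, and Bcl2l1 at 10.4 ± 0.426 CPM per kb in KO and 8.55 ± 0.304 CPM per kb in WT (SD, n = 3 each). Bcl2l2 had 0.396 CPM per kb in KO and 0.432 in WT, and Bcl2 had 0.228 in KO and 0.265 in WT. The libraries of Mcl1 and Bcl2l1 lay apart from each other and from the other pair in both genotypes, while those of Bcl2l2 and Bcl2 overlapped.

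**Figure D3:**
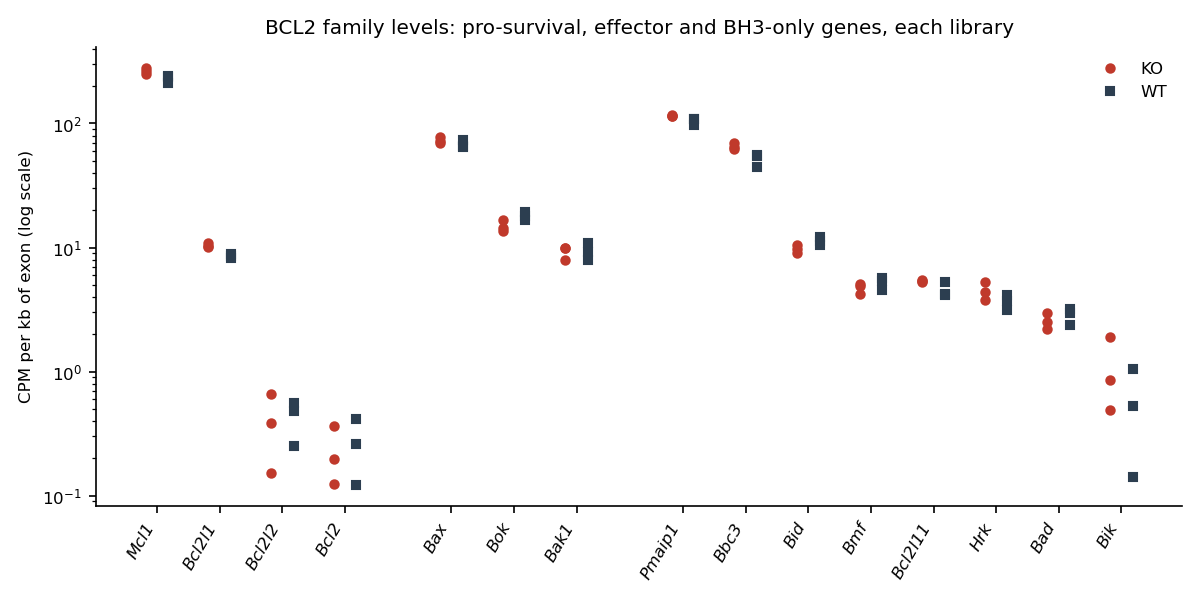
CPM per kb of exon (log axis) of the BCL2 family genes in each library, KO circles left of WT squares, ordered as pro-survival, effector and BH3-only genes. Mcl1 (265 in KO, 230 in WT) stands far above the other pro-survival genes, and Pmaip1, Bax and Bbc3 lead the pro-death genes.

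The opposing sides of the BCL2 family were both slightly higher in KO. The 11 pro-death genes (effectors and BH3-only genes) summed to 305, 301 and 311 CPM per kb in KO, against 282, 276 and 280 in WT. The 4 pro-survival genes summed to 261, 274 and 292 CPM per kb in KO, against 253, 220 and 245 in WT, and Mcl1 made up 96.0% of this sum in KO and 96.1% in WT. Neither sum overlapped between genotypes. The ratio of the pro-death to the pro-survival sum was 1.17, 1.10 and 1.06 in the KO libraries and 1.11, 1.26 and 1.14 in the WT libraries. These ratios overlapped, with means of 1.11 ± 0.052 in KO and 1.17 ± 0.076 in WT (SD, n = 3 each). The sums describe transcript levels per length and were not tested.

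**Figure D4:**
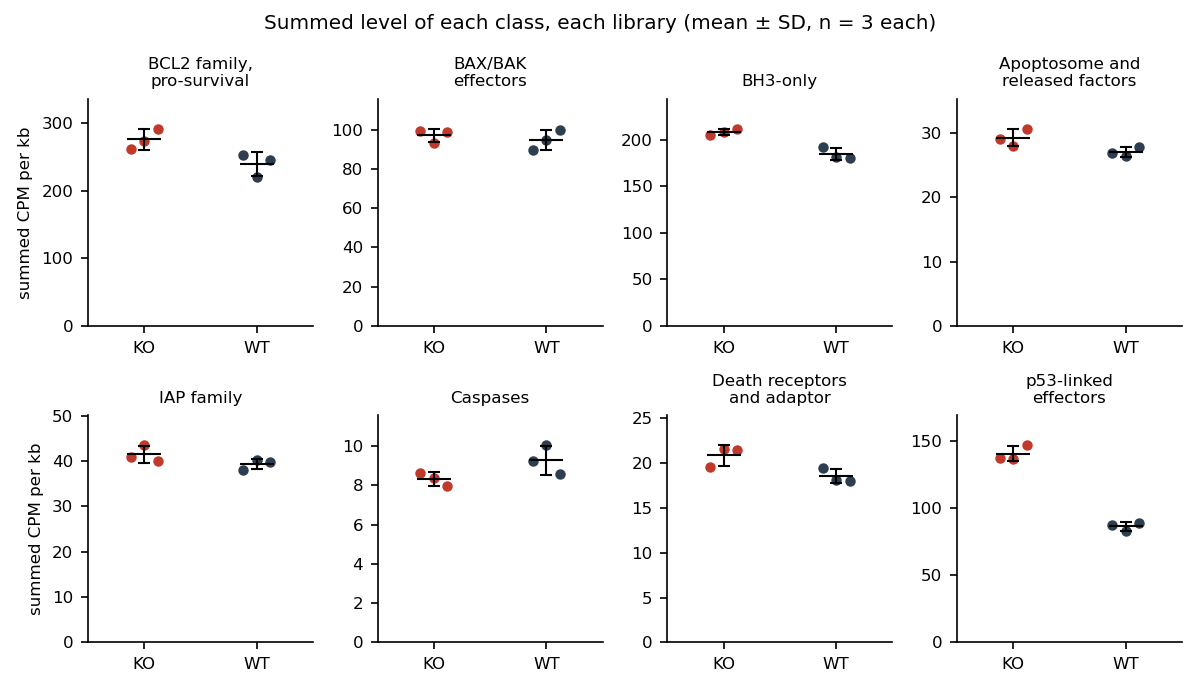
Summed CPM per kb of each class in each library (points), KO left of WT, with the mean ± SD of 3 libraries. The p53-linked effectors are separated most (140 in KO, 86.4 in WT). The BAX/BAK effectors (97.3 in KO, 94.8 in WT), the IAP genes (41.5 in KO, 39.4 in WT) and the caspases (8.32 in KO, 9.28 in WT) overlap. The caspases are the only class with a lower mean in KO.

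Downstream of the mitochondrion, Apaf1 rose and the other 3 apoptosome genes were not called. Apaf1, the scaffold of the apoptosome and a p53 target, lies on chromosome 10 (ENSMUSG00000019979.12, 90989311 to 91082770, minus strand). It had 603, 623 and 471 counts in KO, against 353, 272 and 296 counts in WT. This was 114 ± 6.54 CPM in KO and 68.4 ± 6.85 CPM in WT (SD, n = 3 each), which gave 0.74 ± 0.08 on the log2 scale (SE, adjusted p = 6.57e-12), and the lowest KO library stood well above the highest WT library. Apaf1 made up 43.1% of the summed level of its class in KO and 28.0% in WT.

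Htra2, which encodes a mitochondrial serine protease that binds IAPs once released, had 29.4, 25.1 and 31.7 CPM in KO, against 36.4, 34.9 and 35.5 CPM in WT. All KO libraries were lower, but the log2 fold change of -0.32 ± 0.12 did not pass the test (adjusted p = 0.0653). Without KO library 06 it did (-0.39, adjusted p = 0.0468). Cycs, the somatic cytochrome c gene, had a log2 fold change of -0.19 ± 0.20, and its counts are uncertain because pseudogenes share its sequence. Diablo, which encodes the IAP antagonist SMAC, averaged 22.1 ± 1.98 CPM in KO and 21.9 ± 0.44 CPM in WT. Its exons overlap those of Gm49027 on the same strand and of AC157931.1 and B3gnt4 on the opposite strand. For the class as a whole, the sum per kb was 29.3 ± 1.35 CPM in KO and 27.0 ± 0.75 CPM in WT.

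Of the caspases, 3 were tested and none was called by edgeR, DESeq2 or limma-voom. At an unadjusted p under 0.05, Casp9 was lower. Casp9, the initiator that the apoptosome activates, had 15.4, 18.8 and 17.0 CPM in KO, against 24.3, 23.2 and 19.1 CPM in WT. The groups did not overlap, at -0.38 ± 0.16 on the log2 scale (adjusted p = 0.0761), and the gene was called lower without WT library 03 (-0.48, adjusted p = 0.0443). Thus Apaf1 and Casp9, partners in the same complex, had log2 fold changes of opposite sign, of which that of Apaf1 passed the test. Casp2, the initiator of the PIDDosome, had a value of -0.12 ± 0.16 and Casp6, an executioner, one of 0.13 ± 0.19. Casp8, the initiator of the receptor route, was close to absent in these counts, with 5, 2 and 1 counts in KO and 2, 2 and 1 counts in WT. The counts may leave out reads of some genes.

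None of the 4 IAP genes was called by edgeR, DESeq2 or limma-voom, and at an unadjusted p under 0.05 Birc6 was higher. Birc6, which encodes a very large ubiquitin ligase, had 302, 301 and 276 CPM in KO, against 264, 273 and 262 CPM in WT. These did not overlap (0.14 ± 0.05, adjusted p = 0.0634), and Birc6 passed with library-size scaling (adjusted p = 0.0378) and upper-quartile scaling (adjusted p = 0.0349). Xiap, the direct caspase inhibitor, averaged 52.9 ± 4.56 CPM in KO and 59.9 ± 7.97 CPM in WT. Birc5, which encodes the mitotic protein survivin, averaged 57.2 ± 4.80 CPM in KO and 51.9 ± 4.86 CPM in WT. Birc2, which encodes a ubiquitin ligase of TNF receptor complexes, had a log2 fold change of 0.04 ± 0.12.

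In the receptor class Tnfrsf10b rose, by a small margin. Tnfrsf10b encodes the mouse receptor for the death ligand TRAIL. Tnfrsf10b (ENSMUSG00000022074.6, chromosome 14, 69767472 to 69784403, plus strand) had 75.5, 80.9 and 78.7 CPM in KO, against 73.3, 61.4 and 63.0 CPM in WT, with no overlap. The log2 fold change was 0.25 ± 0.09 (SE, adjusted p = 0.0356). The call was lost without KO library 05 (adjusted p = 0.124), KO library 06 (adjusted p = 0.0843), WT library 02 (adjusted p = 0.186) or WT library 03 (adjusted p = 0.137), and in DESeq2 (adjusted p = 0.129).

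Fas, the prototype death receptor and a p53 target, had 3, 3 and 3 counts in KO and 0, 1 and 2 counts in WT, at or below the floor of 3 counts, so no fold change is given. Fadd, the adaptor shared by these receptors, had 11, 19 and 14 counts in KO and 12, 18 and 15 counts in WT. Eda2r, a TNF receptor family gene listed as a p53 target, averaged 32.1 ± 3.25 CPM in KO and 32.3 ± 1.26 CPM in WT, with a 95% interval of the log2 fold change from -0.25 to 0.23. Of the genes with a listed p53 link, 5 of the 12 tested were thus not called, namely Bax, Pmaip1, Bid, Eda2r and Ei24.

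In a wider list of 85 other apoptosis genes, 57 were tested, 6 rose and 4 fell, shares close to the 8.13% higher and 9.13% lower over all tested genes. Their median log2 fold change was -0.03, and the 28 that were not tested included all 6 further IAP genes, all 4 inflammatory caspases and 5 of 6 death ligands. The 6 that rose all belonged to the 14 PIDDosome and p53-linked death genes of the list. Trp53i11, a p53-inducible gene, had 198, 230 and 188 counts in KO, against 64, 69 and 84 counts in WT (1.36 ± 0.14). Mdm2, the ubiquitin ligase that degrades p53, reached 192 CPM in KO and 107 CPM in WT. Zmat3, an RNA-binding p53 target, had 305 CPM in KO and 207 CPM in WT (0.56 ± 0.05). Pidd1, the platform on which caspase-2 is activated, had 44.4, 49.0 and 44.8 CPM in KO, against 37.1, 26.8 and 28.9 CPM in WT (0.57 ± 0.12, adjusted p = 0.000136). Ppp1r13b, which encodes the p53 cofactor ASPP1, rose by 0.60 ± 0.17 (adjusted p = 0.00836), a call lost without WT library 01 (adjusted p = 0.135). The sixth was Trp53 itself, and its call was lost in all 6 fits that left out 1 library.

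Genes of the wider list also fell. Bnip3, a BCL2 family gene linked to mitophagy and hypoxia, fell to 15.2 CPM in KO, against 24.2 CPM in WT (-0.66 ± 0.15, adjusted p = 0.000783). Steap3, an endosomal ferrireductase gene also known as a p53 target, fell to 20.1 CPM in KO, against 31.5 CPM in WT (-0.65 ± 0.14, adjusted p = 0.000206). Bcl2l13 fell as well (-0.39 ± 0.08), and its exons overlap those of Bid on the opposite strand.

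**Figure D5:**
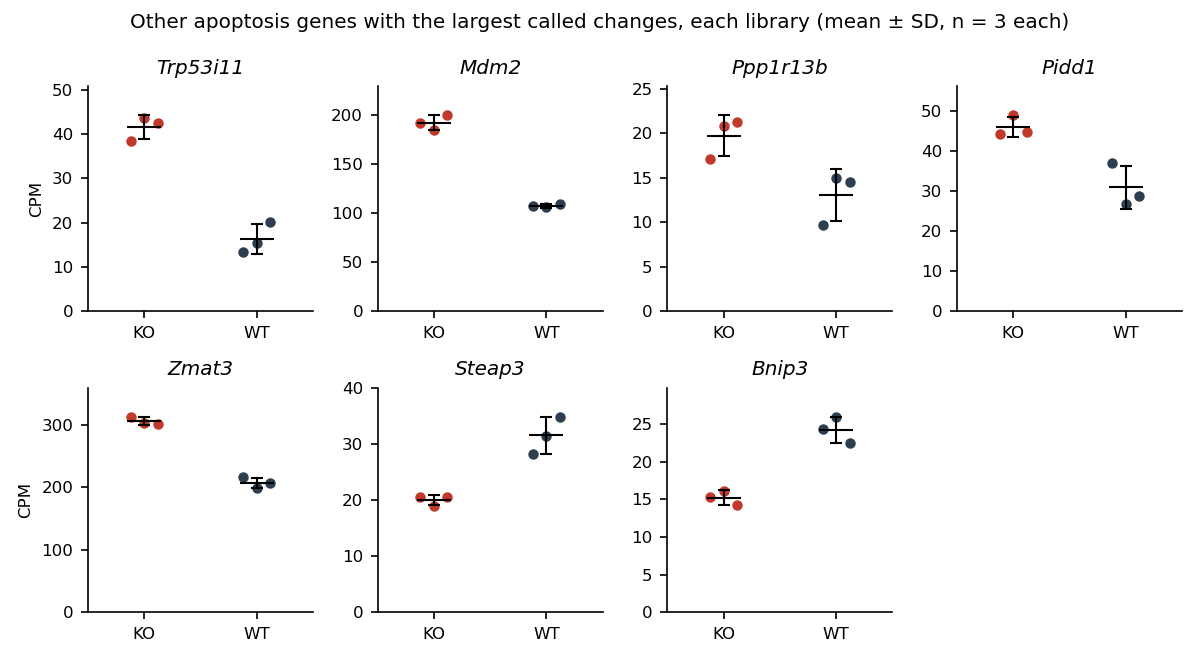
CPM in each library (points) of called genes of the wider list with the largest changes, KO left of WT, with the mean ± SD of 3 libraries. Trp53i11, Mdm2, Ppp1r13b, Pidd1 and Zmat3 are higher in all KO libraries, and Steap3 and Bnip3 are lower in all of them.

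In the authors' deposited table, 5 of the 36 genes had an FDR under 0.05 and all 5 were higher in KO. Over all 49585 rows of the authors' deposited table, 1.45% were higher and 1.72% lower at that threshold, with rows without counts included. The folds given in the authors' deposited table were 2.01 for Perp, 1.81 for Phlda3, 1.66 for Apaf1, 1.66 for Trp53inp1 and 1.26 for Bbc3. Mcl1, Aen and Tnfrsf10b were not among them. These 5 genes were also called whichever single library was left out of the edgeR fit.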

How the data were processed

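RNA-seq libraries from 3 KO and 3 WT EpiLC samples were analysed. The submitters' processing notes name mm10 and edgeR without versions, and the aligner, annotation and strand setting are, in the sources used here, not given, so overlapping and antisense genes are uncertain. The authors deposited whole-number counts per gene, not normalized (per the file headers, with library totals that differ). The p-values with their FDR correction and the signed fold (a score with no fixed range) are the authors' own, from the deposited table. Another 18 value columns were not used. Some of them appeared to rest on more reads than the counts, so the counts may leave out reads of some genes. Libraries were assigned by genotype and are named by library number.

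Genes were filtered with filterByExpr (11594 kept), scaled by TMM (0.987 to 1.02) and fitted with edgeR 4.0.16 (robust quasi-likelihood, group as the only term, R 4.3.3). The Benjamini-Hochberg adjustment covered all tested genes, and genes were called under 0.05. The SE is the log2 fold change divided by the square root of F, and 95% intervals are 1.96 SE on either side. DESeq2 1.42.0 and limma 3.58.1 served as alternatives. CPM per kb divides CPM by the GENCODE M21 exon length. Gene identifiers and strands are from GENCODE M21, promoter windows from RefSeq. The script was tested on simulated counts. Within groups, pairs of libraries varied beyond counting noise, with 1.72 to 2.62 for chi-square per degree of freedom. The floor of 3 counts per library covers counting error only.

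The members, lists and tests were chosen with earlier results of these data known. All 36 genes are named. Values in every library are given for called genes, for uncalled genes with an absolute log2 fold change over 0.3 and for some others, and of the wider list the 8 called genes with the largest change are named except 1 that is not reported here, with Trp53 and Bcl2l13 added after their values were seen.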

Additional observations from a re-analysis of the deposited data

How the results depend on the processing

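Perp, Phlda3, Apaf1, Trp53inp1 and Bbc3 rose under every setting tried. Leaving out 1 library at a time gave 5 to 8 of the 36 genes higher and 0 to 1 lower, with 5 higher without WT library 02, and 719 to 823 higher and 820 to 923 lower over all genes. Over all genes DESeq2 called 561 higher and 680 lower. Library-size scaling called 11 of the 36 higher, against 1099 higher and 959 lower over all genes, and upper-quartile scaling also 11, against 1104 and 970, so that 53.4% and 53.2% of all calls were higher, against 47.1%. The apoptosome sum was 1.27 times WT without division by length, against 1.08. It was 1.31 times WT without Htra2, the most abundant gene of that class per kb over all libraries, with Apaf1 still included. A sum without Apaf1 was not made. With 1 mismatch, 19 genes held a decamer instead of 6. Some uncalled genes turned sign, each with a log2 fold change in the main fit smaller than its SE, and the cause was not tested. Bak1 had 0.0076 and Eda2r 0.0050 with library size alone, and Bak1 had 0.0062 and Eda2r 0.0033 with upper-quartile scaling. Without KO library 04 Bak1 had 0.086, Fadd 0.016 and Eda2r 0.063. Without KO library 05 Bcl2 had 0.085, Diablo -0.019 and Ei24 -0.011, and without KO library 06 Diablo had -0.030 and Birc2 -0.024. Without WT library 01 Bcl2 had 0.27, without WT library 02 Bak1 had 0.11 and Eda2r 0.016, and without WT library 03 Birc2 had -0.041. No paired analysis was possible because the count columns carry library numbers and not the replicate numbers of the labels. The protein motif search was not run. Low counts limit what can be said of Bcl2, Fadd, Bik, Casp8, Fas and Bcl2l2.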
